A study of Mus musculus with 2 samples.

Results

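The 9 genes described here encode proteins of tight junctions, the seals that close the space between neighbouring cells: the claudins Cldn1, Cldn2, Cldn3, Cldn5, Cldn11 and Cldn19, occludin (Ocln), junctional adhesion molecule A (F11r) and the zonula occludens scaffold Tjp1. They were taken by gene symbol, as a list and not by their values, from the 33456 genes counted, and all 9 were present. Their levels are given in every cell class of the dissection, with the pigmented and non-pigmented epithelia of the eye set against its endothelium.

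The tissue, labelled ciliary epithelium, came from C57BL/6 mice of postnatal day 35 that were wild type and untreated, and it was cut into fragments and loosened with collagenase. No other genotype was included. Droplet-based single-cell RNA sequencing gave 2 libraries, each from eyes that were pooled: 3 sets of eyes for library 1, and 3 or 4 sets for library 2, where the labels differ. Every mean or test below therefore rests on n = 2 libraries, and nothing in the labels shows how far they differ beyond being separate pools. With library as a term in the fit, the overall difference between the pools is set aside. A p-value then weighs a class difference against how class levels vary between the pools, a spread shared over 17 classes. Values are given as library 1 and library 2, in that order.

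Tight junctions form a belt near the apical side of epithelial cells and along the contacts of endothelial cells. Claudins are membrane proteins that pair across the cleft between cells, and the set of claudins a cell makes decides whether the seal is closed or lets chosen ions and water pass. Cldn1, Cldn3, Cldn5, Cldn11 and Cldn19 are known as sealing claudins, while Cldn2 forms a pore for cations and water. Occludin and F11r are further membrane proteins of the belt, and Tjp1 is a cytoplasmic scaffold that ties all of them to actin. In the eye, the non-pigmented layer of the ciliary epithelium carries the epithelial part of the blood-aqueous barrier, the retinal pigment epithelium the outer blood-retina barrier, and endothelium of retinal vessels the inner one. Many ciliary body capillaries, in contrast, are fenestrated and leaky.

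The 4 claudins whose transcripts divided the barriers most clearly are shown first by the 250 bases before their start site, from RefSeq on GRCm38.p6, so that the sequences next to genes with such different class profiles can be read side by side. Each is written in the direction of transcription, and capitals mark matches, on either strand, to 7 motifs searched by their letters.
Cldn5, chr16:18776597-18776846, plus strand: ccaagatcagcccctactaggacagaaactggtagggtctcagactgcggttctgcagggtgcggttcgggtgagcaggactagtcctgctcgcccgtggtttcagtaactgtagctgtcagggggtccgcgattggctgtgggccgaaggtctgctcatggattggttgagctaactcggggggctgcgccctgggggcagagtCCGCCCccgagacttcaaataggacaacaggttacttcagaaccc
Cldn1, chr16:26371840-26372089, minus strand: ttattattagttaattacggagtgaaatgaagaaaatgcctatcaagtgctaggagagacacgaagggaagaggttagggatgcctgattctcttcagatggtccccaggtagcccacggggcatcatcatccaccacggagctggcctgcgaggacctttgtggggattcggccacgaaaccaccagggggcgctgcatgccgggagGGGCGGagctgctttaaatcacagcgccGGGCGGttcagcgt
Cldn2, chrX:139800558-139800807, plus strand: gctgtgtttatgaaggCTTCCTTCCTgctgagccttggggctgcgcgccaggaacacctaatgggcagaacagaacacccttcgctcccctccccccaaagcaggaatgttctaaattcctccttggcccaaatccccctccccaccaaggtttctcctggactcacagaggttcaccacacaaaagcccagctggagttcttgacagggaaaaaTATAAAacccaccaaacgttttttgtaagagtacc
Cldn19, chr4:119255191-119255440, plus strand: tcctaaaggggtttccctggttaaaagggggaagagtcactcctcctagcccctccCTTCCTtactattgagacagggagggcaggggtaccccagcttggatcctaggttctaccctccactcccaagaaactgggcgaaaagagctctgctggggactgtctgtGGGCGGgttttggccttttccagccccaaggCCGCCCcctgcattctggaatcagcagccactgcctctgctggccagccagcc
In the Cldn5 window the capitals mark a GC box (GGGCGG, read on the other strand) that begins 45 bases before the start, and in the Cldn1 window GC boxes at 42 and 14 bases. The Cldn2 window has a TATA box (TATAAA) at 35 bases and 2 overlapping matches to an ETS core (AGGAAG, read on the other strand) at 234 and 230 bases. The Cldn19 window has an ETS core at 194 bases and GC boxes at 84 and 53 bases. Of 32851 mouse promoter windows of this length, 32.7% held the GC box, 12.4% the TATA box and 29.5% the ETS core. None of the 9 member windows held a GATA-factor motif (AGATAA), an E-box (CACGTG) or a SOX-type motif (ACAATG), which 9.99%, 6.02% and 10.7% of all windows held, and an OTX-type motif (TAATCC, 6.25% of windows) occurred in that of Cldn11. Such matches describe the letters only and say nothing about binding.

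The gene bodies lie at chr16:18776847-18778262 (Cldn5, plus strand), chr16:26356642-26371841 (Cldn1, minus), chrX:139800828-139811386 (Cldn2, plus), chr4:119255414-119262438 (Cldn19, plus), chr5:134986214-134987472 (Cldn3, plus), chr3:31149920-31164324 (Cldn11, plus), chr13:100496507-100552718 (Ocln, minus), chr1:171437535-171464603 (F11r, plus) and chr7:65296165-65527781 (Tjp1, minus) of GRCm38. These positions come from another annotation than the promoter windows, so the starts can differ. The Cldn19 window, which ends at 119255440, reaches into the gene body given here, and so does that of Cldn1, which begins at 26371840. For Cldn19, 2 starts were listed and the window of 1 is shown. Counts were per gene and single out no exon. Cldn19 overlaps the antisense gene Gm12927 and Cldn3 overlaps the antisense gene Wbscr25, and as the strand used in counting is not given in the sources used here, reads of these partners cannot be told apart from those of the claudin.

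Library 1 held 4764 cell barcodes with 22510387 unique molecular identifiers (UMIs, each standing for 1 captured transcript), and library 2 held 6220 barcodes with 30683405 UMIs. After filtering, 3865 and 5466 cells remained, and 8 of the kept barcodes occurred in both libraries. Clusters formed from genes that did not include the 9 members were named by marker genes. Endothelium (146 and 97 cells) held UMIs of 13 of 13 vascular markers, which summed to 12037 and 7688 CPM (the usual depth-scaled unit, here a gene's UMIs in a class relative to all UMIs of that class), against at most 320 CPM in either library of the epithelia, fibroblasts and contractile cells. Non-pigmented epithelium (141 and 150 cells) had the marker Optc at 1141 and 1487 CPM, and pigmented epithelium (138 and 214 cells) had the pigment gene Dct at 18571 and 18566 CPM. Retinal pigment epithelium (214 and 229 cells) had Rpe65 at 2009 and 1889 CPM and Rgr at 5544 and 4894 CPM, but 0 UMIs of the marker Best1. The markers do not separate pigmented epithelium of the ciliary body from that of the iris, and 1 of its sub-clusters (34 and 14 cells) was led by the muscle genes Acta2, Tagln and Myh11. Rods, which should make no Dct, held it at 229.9 and 521 CPM, which gives a measure of free pigment-cell RNA in each library.

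The claudins fell into class-restricted patterns, whereas F11r and Tjp1 were spread over many classes. Cldn5 was an endothelial transcript, Cldn1 was highest in retinal pigment epithelium, and Cldn2, Cldn19 and Cldn3 had their highest epithelial level in non-pigmented epithelium. Ocln had at most 35.6 CPM in any of the 4 barrier classes as a whole, and Cldn11 was near 0 in all 4 barrier classes.

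**Figure D1:**
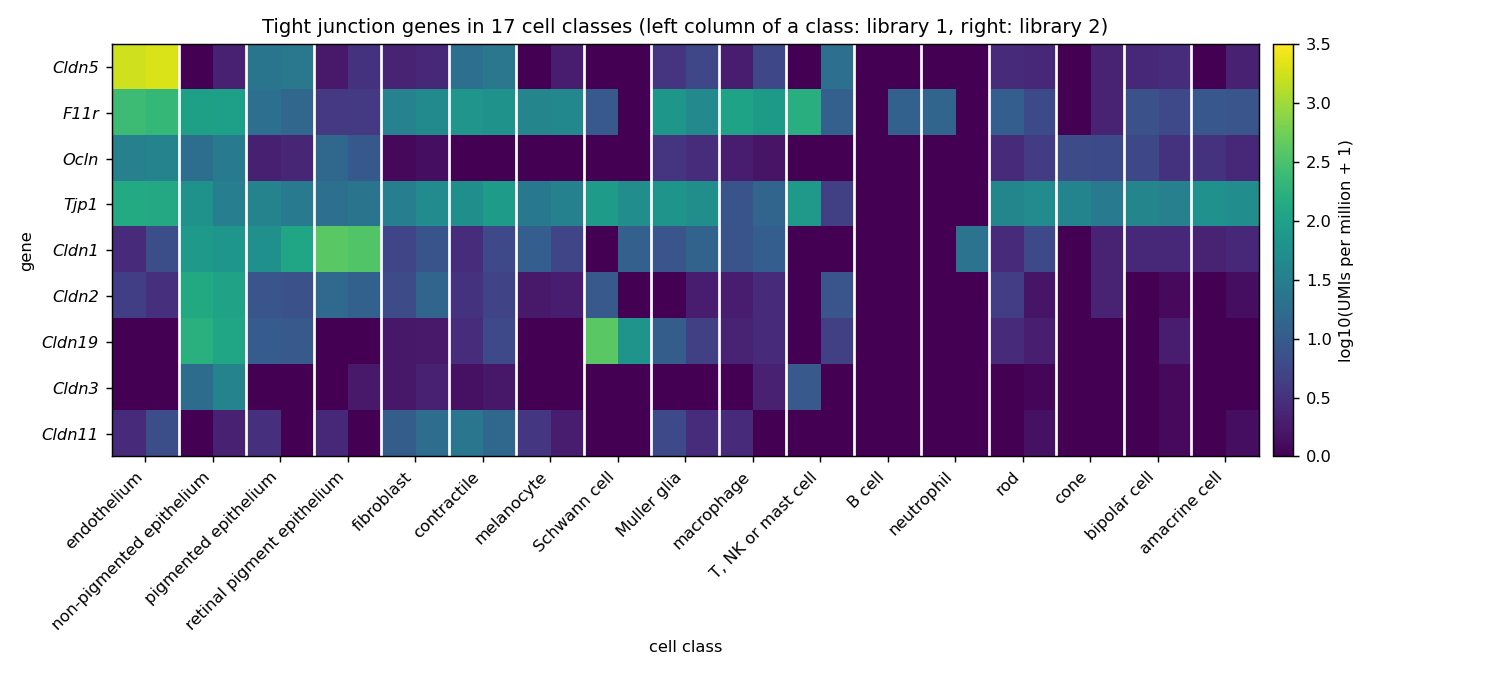
Level of each of the 9 members (rows) in 17 cell classes, each with library 1 and library 2 side by side (columns), as log10(CPM + 1) of UMIs summed over the cells of a class. Cldn5 stands out in endothelium (1791 and 2001 CPM), Cldn1 in retinal pigment epithelium (400 and 358 CPM), and Tjp1 is spread over most classes.

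Cldn5, the sealing claudin of vascular endothelium, had 2112 UMIs in the endothelium of library 1 (1791 CPM) and 1012 in that of library 2 (2001 CPM). It was detected in 97.3% and 85.6% of endothelial cells, and in 75.4% and 72.6% after each cell was thinned to 1000 UMIs. Of all its 3316 UMIs in kept cells, 94.2% were in endothelium. Non-pigmented epithelium held 0 and 1 UMIs, retinal pigment epithelium 1 and 3, and fibroblasts 7 and 4. In rods, taken as background, 0.258% and 0.54% of cells held a UMI, at median depths of 1024 and 1288 UMIs per cell against 5055 and 3269 in endothelium. The next class was pigmented epithelium, with 21 UMIs (22.1 CPM) and 34 UMIs (24.0 CPM), and these came from very few cells. All 21 UMIs in library 1 lay in 1 cell with 18417 UMIs in all, and 29 of the 34 in library 2 lay in 1 cell with 47983, without which the library 2 level was 3.66 CPM. Both cells exceeded the class's median depths of 4922 and 4089 UMIs, and whether they were doublets was not tested. Contractile cells (smooth muscle or pericyte markers) had 17.8 and 23.1 CPM, in 2.63% and 3.46% of cells.

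Cldn1, a sealing claudin needed for the skin's water barrier, was highest in retinal pigment epithelium, at 564 UMIs (400 CPM) in library 1 and 478 UMIs (358 CPM) in library 2. The other epithelia followed: non-pigmented epithelium had 64 UMIs in each library (74.0 and 68.1 CPM), and pigmented epithelium had 53 (55.7 CPM) and 158 (112 CPM). The 95% counting intervals of these classes overlapped in library 1 (57.0 to 94.5 CPM non-pigmented, 41.7 to 72.8 CPM pigmented). They did not overlap in library 2, where the pigmented layer was higher (52.4 to 86.9 CPM against 94.9 to 130.4 CPM), so the order of these classes was not the same in both libraries. Endothelium held 2 and 3 UMIs, and rods 1 and 35 (1.69 and 4.97 CPM). Cells with a Cldn1 UMI made up 64.0% and 55.0% of retinal pigment epithelium (27.9% and 29.5% after thinning), against 24.8% and 26.7% of the non-pigmented and 15.2% and 19.6% of the pigmented layer. In rods the share was 0.258% and 1.57%, at median depths of 1024 and 1288 UMIs against 4428 and 3367 in retinal pigment epithelium. Over both libraries the level in retinal pigment epithelium was 5.35 times that in the non-pigmented layer (interval 4.45 to 6.48) and 4.26 times that in the pigmented layer (3.67 to 4.96). These intervals cover counting error only. Within the pigmented layer of library 2, 138 of the 158 UMIs lay in a sub-cluster of 63 cells whose leading genes included Myoc, Dcn and Rgs5, genes of fibroblasts, trabecular meshwork and pericytes. In library 1 that sub-cluster held 26 of 53 UMIs.

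Cldn2, the cation and water pore, was highest in non-pigmented epithelium, with 116 UMIs (134 CPM) and 98 UMIs (104 CPM), in 36.9% and 30.7% of cells (14.3% and 10.3% after thinning), whose median depths were 3224 and 2460.5 UMIs. Retinal pigment epithelium had 21 UMIs (14.9 CPM) and 15 UMIs (11.2 CPM), and pigmented epithelium 7 (7.35 CPM) and 9 (6.36 CPM). Endothelium had 4 and 1 UMIs and rods 2 and 4, in 0.258% and 0.216% of cells. The non-pigmented level over both libraries was 17.5 times the pigmented one (interval 10.6 to 31.3) and 9.04 times that of retinal pigment epithelium (6.33 to 13.3). Fibroblasts held 31 UMIs (5.32 CPM) and 35 UMIs (12.6 CPM), of which 29 and 26 lay in 1 of the 3 clusters that make up the class, one with trabecular meshwork markers.

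Cldn19, a sealing claudin known for its part in the kidney tubule, in human retinal pigment epithelium and in the myelin of peripheral nerve, was found in non-pigmented epithelium at 144 UMIs (167 CPM) and 108 UMIs (115 CPM), in 47.5% and 39.3% of cells (17.5% and 15.9% after thinning). Endothelium had 0 UMIs in both libraries, and so did retinal pigment epithelium. With the limit that a count of 0 allows (3 UMIs over both libraries), the non-pigmented level was at least 78.4-fold higher than that of endothelium and at least 128-fold higher than that of retinal pigment epithelium, limits that cover counting error only. Pigmented epithelium held 9 UMIs in 2 cells (9.45 CPM) and 12 UMIs in 7 cells (8.48 CPM). Rods held 1 and 7 UMIs, in 0.258% and 0.378% of cells. Schwann cells were the other source, at 47 UMIs (395 CPM) in 9 of 42 cells of library 1 and 6 UMIs (63.9 CPM), all in 1 of 33 cells, of library 2.

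Cldn3, a sealing claudin of many epithelia, was sparse. Non-pigmented epithelium had 14 UMIs (16.2 CPM) in 6 cells and 34 UMIs (36.2 CPM) in 18 cells. In library 1, 7 of the 14 lay in 1 cell with 44526 UMIs in all, without which the level was 8.54 CPM. In library 2 the top cell held 6 of the 34. Both endothelium and pigmented epithelium had 0 UMIs in both libraries, and retinal pigment epithelium had 0 and 1. The non-pigmented level was at least 14.9-fold higher than the endothelial and at least 21.0-fold higher than the pigmented one, by the same limit. Of 66 Cldn3 UMIs in all kept cells, 48 were in the non-pigmented class.

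Cldn11, the claudin of central myelin and of Sertoli cells, had at most 3 UMIs per library in any of the 4 barrier classes. Its UMIs lay in contractile cells, at 50 UMIs (22.3 CPM) and 20 UMIs (14.02 CPM), and in fibroblasts, at 57 UMIs (9.78 CPM) and 47 UMIs (16.97 CPM). Within fibroblasts, 41 and 46 of these were in the second cluster with trabecular meshwork markers. Schwann cells, the myelinating class here, had 0 UMIs in both libraries, at 42 and 33 cells.

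Ocln, occludin, was highest in endothelium at 38 UMIs (32.2 CPM) and 18 UMIs (35.6 CPM). Non-pigmented epithelium followed with 15 UMIs (17.4 CPM) and 24 UMIs (25.5 CPM), and retinal pigment epithelium with 20 (14.2 CPM) and 11 (8.23 CPM). Pigmented epithelium held 1 and 2 UMIs, close to rods at 1.69 and 3.12 CPM. The endothelial and non-pigmented counting intervals overlapped in both libraries (22.8 to 44.2 against 9.71 to 28.6 CPM, and 21.1 to 56.2 against 16.4 to 37.98 CPM).

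F11r, the adhesion molecule that also helps leukocytes and platelets to adhere, was highest in endothelium at 298 UMIs (253 CPM) and 109 UMIs (215 CPM). Non-pigmented epithelium had 84 (97.2 CPM) and 87 (92.5 CPM), near macrophages at 107 and 79.4 CPM. Contractile cells had 66.5 and 61.7 CPM, pigmented epithelium 17.9 and 13.4 CPM, and retinal pigment epithelium 4 UMIs in each library (2.84 and 2.99 CPM), below the 10.1 and 5.11 CPM of rods. T, NK or mast cells had 36 UMIs in library 1, 29 of them in 1 cell with 243 UMIs of the surface keratin Krt13, and 3 in library 2.

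Tjp1, the scaffold, was highest in endothelium at 160 UMIs (136 CPM) and 66 UMIs (130.5 CPM). In library 1, 37 of the 160 lay in 1 cell with 46124 UMIs in all, without which the level was 108.5 CPM. Contractile cells had 54.4 and 85.5 CPM, non-pigmented epithelium 62.5 and 30.8 CPM, pigmented epithelium 35.7 and 26.8 CPM, and retinal pigment epithelium 17.7 and 20.9 CPM. Rods had 38.9 and 48.6 CPM, so that both pigmented classes lay below a neuron. Macrophages had the lowest level among classes of more than 100 cells in each library, at 7.02 and 12.9 CPM.

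**Figure D2:**
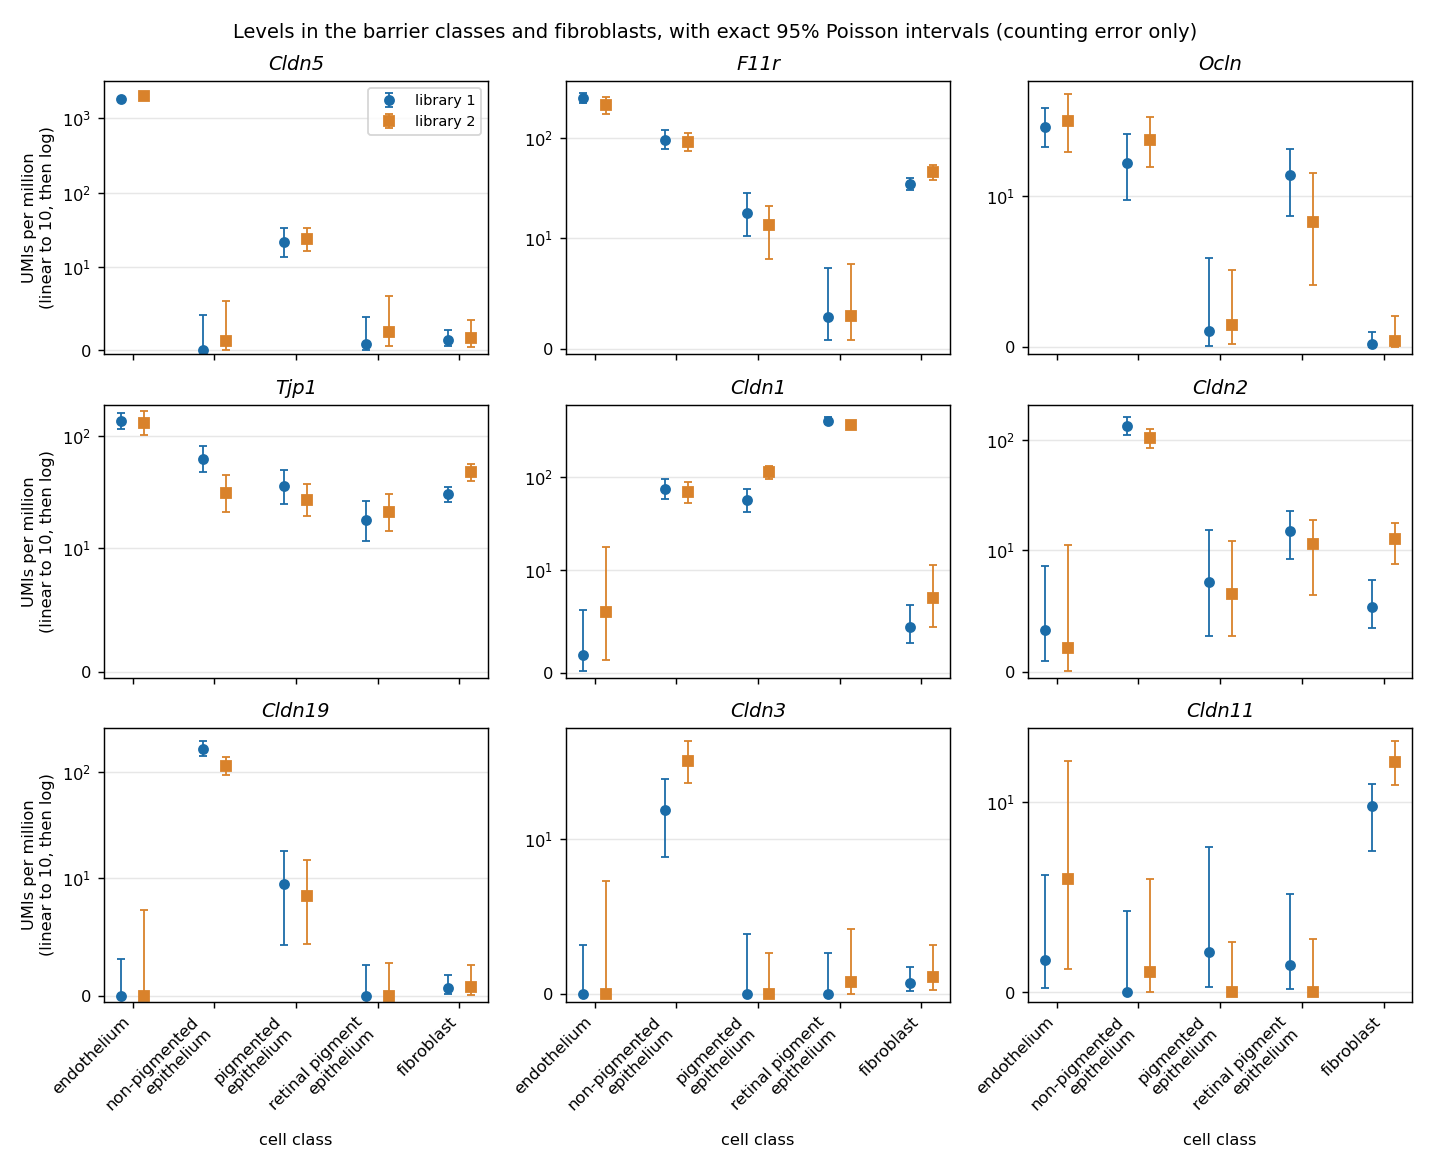
CPM of the 9 members in endothelium, the 3 epithelia and fibroblasts, 1 point per library with its exact 95% Poisson interval (counting error only), on an axis that is linear up to 10 CPM and logarithmic above. Cldn5 is highest in endothelium (1791 and 2001 CPM), Cldn1 in retinal pigment epithelium (400 and 358 CPM), and Cldn2 and Cldn19 in non-pigmented epithelium (134 and 104 CPM, and 167 and 115 CPM).

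The first comparison set the mean of the 3 epithelia against endothelium, by edgeR's quasi-likelihood test on UMIs summed per class and library, with library as a term. Calls needed an adjusted p (Benjamini-Hochberg) below 0.05 together with a log2 fold change of 1 or more in size. Differences are log2 fold changes ± SE, over n = 2 libraries. The SE is the size of the difference divided by the square root of the test's F statistic. It thus restates the test and is no separate measure of spread. Of the 7 members that could be fitted, 2 were higher in epithelia and 4 lower, where 14% of all genes tested were called higher and 13.8% lower (27.8% either way). Cldn1 was higher by 5.54 ± 0.48 (edgeR adjusted p = 2.33e-10) and Cldn2 by 3.04 ± 0.60 (adjusted p = 1.90e-04, edgeR). Cldn5 was lower, with a difference of -9.23 ± 0.31 (edgeR adjusted p = 7.48e-19), and so were F11r (-3.64 ± 0.31, edgeR adjusted p = 6.45e-11) and Tjp1 (-1.94 ± 0.31, edgeR adjusted p = 8.87e-06). Ocln was lower by the fit (-2.09 ± 0.40, edgeR adjusted p = 1.94e-04), with most endothelial Ocln UMIs in 1 sub-cluster, described further on. Cldn11 differed by -1.78 ± 1.12 (edgeR adjusted p = 0.24). Cldn3 and Cldn19 could not be fitted in this mean, since 1 or more epithelial classes and the endothelium had 0 UMIs.

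Each epithelium was then set alone against endothelium. In non-pigmented epithelium 4 members were called higher (11.6% of all genes) and 3 lower (11.7%, or 23.4% either way). Cldn1 (4.58 ± 0.55) and Cldn2 (5.39 ± 0.57) were higher with edgeR adjusted p = 2.31e-07 and 2.33e-08, and Cldn19 and Cldn3 were also called higher (edgeR adjusted p = 4.66e-08 and 2.44e-04), with the lower limits on their folds given above. DESeq2 returned no adjusted p for Cldn3, so the call was not made there (difference 6.96, DESeq2's own SE 4.70). Cldn5 was lower (edgeR adjusted p = 9.53e-14), at 1 UMI in the epithelium against 3124 in endothelium over both libraries. Tjp1 was lower by the fit (-1.41 ± 0.40, edgeR adjusted p = 0.00869), as was F11r (-1.19 ± 0.36, edgeR adjusted p = 0.0130). The F11r call was lost with DESeq2 (adjusted p = 0.103) and without the library term (edgeR adjusted p = 0.0539). Ocln differed by -0.53 ± 0.45 (edgeR adjusted p = 0.448). Cldn11, at 1 UMI against 5, was not called (edgeR adjusted p = 0.371).

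In pigmented epithelium 2 members were called higher (12.5% of all genes) and 4 lower (13.1%, or 25.6% either way). Cldn1 was higher by 4.78 ± 0.54 (edgeR adjusted p = 6.66e-08), and Cldn2 differed by 1.25 ± 0.78 (edgeR adjusted p = 0.26). Cldn19 was called higher (edgeR adjusted p = 0.00394), at 21 UMIs against 0 or at least 4.98-fold, a call lost when the top 5% of cells by UMIs were left out (adjusted p = 0.22) or UMIs were split between clustering and testing (adjusted p = 0.0873). Cldn5 (-6.29 ± 0.38), F11r (-3.80 ± 0.42) and Tjp1 (-2.01 ± 0.41) were lower, with edgeR adjusted p from 2.33e-12 to 3.27e-04. Ocln was lower (-4.53 ± 0.65, edgeR adjusted p = 6.91e-06), at 3 UMIs against 56, a ratio of 26.2 in CPM with a counting interval from 8.52 to 131. Cldn11, at 2 UMIs against 5, was not called (edgeR adjusted p = 0.429), and Cldn3 had 0 UMIs on both sides.

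In retinal pigment epithelium 2 members were called higher (15.4% of all genes) and 4 lower (16.6%, or 32% either way). Cldn1 had its largest difference here, 7.27 ± 0.49 (edgeR adjusted p = 3.97e-12), a level 128 times that of endothelium (interval 54.6 to 395). Cldn2 was higher by 2.48 ± 0.69 (edgeR adjusted p = 0.00521), and this call was lost without the top 5% of cells by UMIs (adjusted p = 0.187) or with split UMIs (adjusted p = 0.072). Cldn5 (-9.93 ± 0.50), F11r (-5.92 ± 0.53) and Tjp1 (-2.40 ± 0.42) were lower, with edgeR adjusted p from 5.29e-14 to 4.00e-05. Ocln just passed the threshold (-1.20 ± 0.45, edgeR adjusted p = 0.0424) and lost the call under 8 of 13 alternatives, with 1 more changing its sign. Cldn11, at 2 UMIs against 5, and Cldn3, at 1 against 0, were not called (edgeR adjusted p = 0.405 and 0.519), and Cldn19 had 0 UMIs on both sides. These comparisons share the endothelial sums, so their values stand side by side and are not independent.

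**Figure D3:**
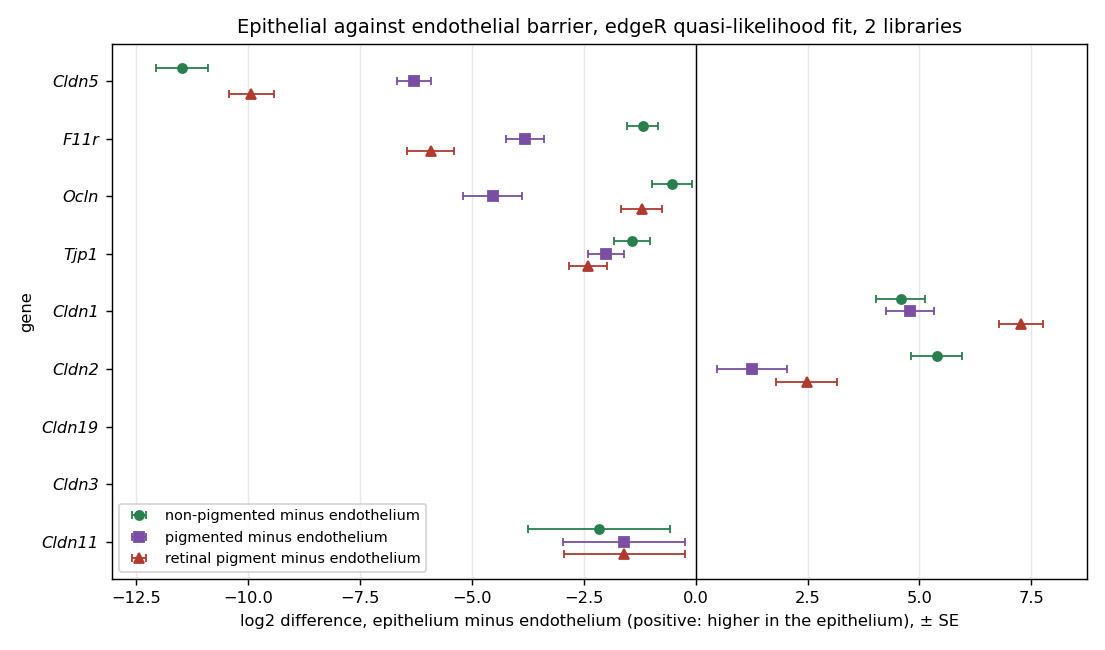
Log2 fold change ± SE of members in non-pigmented, pigmented and retinal pigment epithelium, each minus endothelium, from the edgeR fit of n = 2 libraries. Cldn1 and Cldn2 lie above 0 and Cldn5, F11r and Tjp1 below 0 in all 3 epithelia, and Cldn3 and Cldn19 are not drawn because a class was at 0 UMIs.

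Endothelium was not uniform in these genes. Sub-clustering on genes that did not include the members gave a sub-cluster of 22 and 27 cells rich in Slco1c1 (530 and 417 CPM, against 0 to 39.8 CPM elsewhere in endothelium), a thyroid hormone and organic anion carrier of brain and retinal capillaries. It also held Mfsd2a at 315 and 285 CPM and the glucose carrier Slc2a1 at 1510 and 1831 CPM. Its Plvap level, 80.9 and 30.5 CPM, was below the 472 to 3818 CPM of the other sub-clusters; Plvap forms the diaphragms of fenestrated capillaries. The same sub-cluster carried red cell RNA, with Hbb-bs at 23568 and 50671 CPM, and in library 2 smooth muscle or pericyte markers (10 of 11 detected, 1831 CPM, against 3 of 11 and 27.0 CPM in library 1). The part of either in the values below was not tested. It was chosen after its member levels were seen, so its values are a description with no test.

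The Slco1c1-rich cells had more Cldn5, Ocln and Tjp1 per UMI than other endothelial cells in both libraries. Those other cells were not the same mixture: sub-cluster 1 had 64 and 3 cells, and sub-cluster 5, rich in rod RNA, 1 and 32. Cldn5 reached 6103 and 5098 CPM. The remaining endothelial cells had 1342 and 1254 CPM, a ratio of 4.55 (counting interval 4.15 to 4.99) and 4.07 (3.59 to 4.61). Ocln had 33 UMIs (297 CPM) and 15 UMIs (153 CPM) there, against 5 (4.68 CPM) and 3 (7.36 CPM). Thus 48 of 56 endothelial Ocln UMIs, 85.7%, came from 49 of 243 cells. Tjp1 had 548 and 285 CPM, against 92.7 and 93.2 CPM. F11r did not follow, with 171 and 203 CPM against 261 and 218 CPM, a ratio over both libraries of 0.746 with an interval (0.522 to 1.04) that includes 1. F11r was instead highest in the sub-cluster with lymphatic or Schlemm canal markers (Prox1 at 281 and 164 CPM), at 411 and 431 CPM, where Cldn5 stood at 1476 and 1422 CPM.

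The fit was repeated without the Slco1c1-rich cells. They were left out with their Ocln level known and held 85.7% of the endothelial Ocln UMIs, so the move of Ocln follows from that choice and its values are given with no test. Ocln then differed from endothelium by 0.48 ± 0.65 in the mean of epithelia, 2.04 ± 0.61 in non-pigmented, 1.38 ± 0.62 in retinal pigment and -1.97 ± 0.90 in pigmented epithelium. Tjp1, also chosen with its level known, differed by -0.91 ± 0.41 in the non-pigmented layer. The calls of Cldn1 and Cldn5 against endothelium stayed under each of 13 alternatives, in all 3 epithelia.

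**Figure D4:**
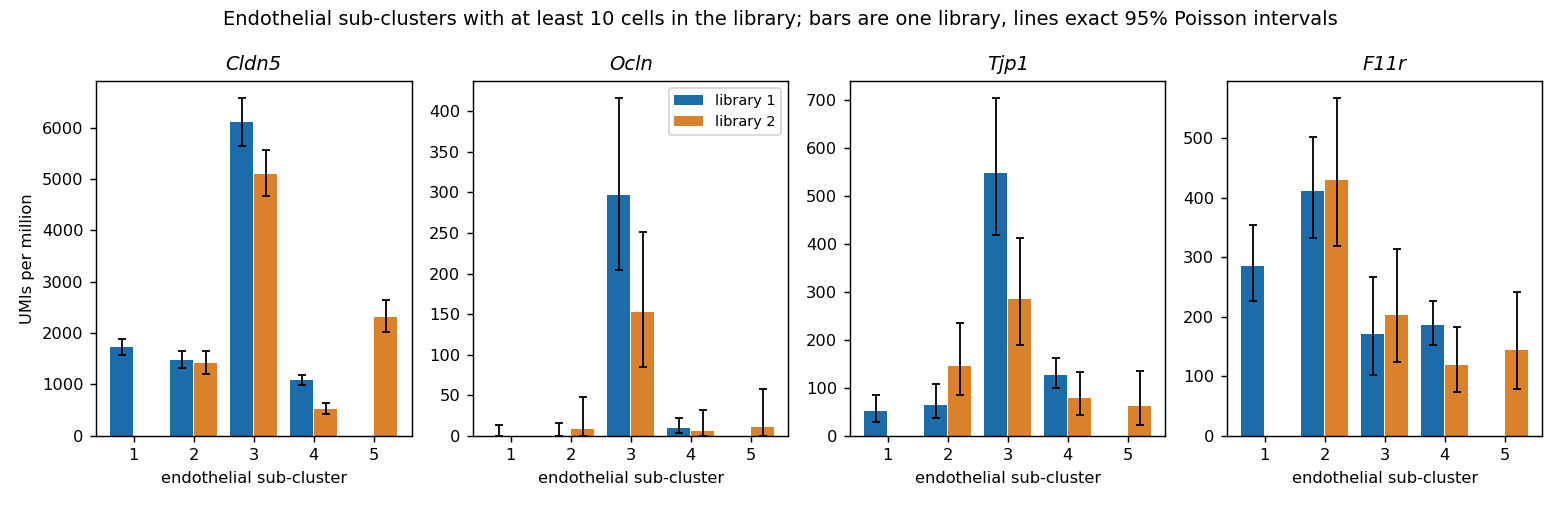
CPM of Cldn5, Ocln, Tjp1 and F11r in the endothelial sub-clusters that had at least 10 cells in a library, 1 bar per library with its exact 95% Poisson interval. Sub-cluster 3, the Slco1c1-rich one, is highest for Cldn5, Ocln and Tjp1, and sub-cluster 2, with lymphatic or Schlemm markers, is highest for F11r.

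The next comparison set the inner, non-pigmented layer of the ciliary epithelium against the pigmented class. Of 9 members, 5 were higher in the non-pigmented layer (5.11% of all genes) and 1 lower (2.96%, or 8.06% either way). Cldn2 was higher by 4.14 ± 0.47 (edgeR adjusted p = 3.42e-07), Cldn19 by 3.93 ± 0.50 (edgeR adjusted p = 8.02e-06) and F11r by 2.62 ± 0.43 (edgeR adjusted p = 8.96e-05). Ocln was higher by 4.00 ± 0.67 (edgeR adjusted p = 2.38e-04), at 39 UMIs against 3, a ratio of 17.1 in CPM with a counting interval from 5.42 to 86.3. Cldn3, at 48 against 0 UMIs, was also called higher by edgeR (adjusted p = 2.45e-04), but not by DESeq2 (adjusted p = 0.444). Cldn1 (-0.20 ± 0.33, edgeR adjusted p = 0.821) and Tjp1 (0.59 ± 0.43, edgeR adjusted p = 0.538) were not called, nor was Cldn11 at 1 UMI against 2 (edgeR adjusted p = 0.953). Cldn5 was the member called lower (edgeR adjusted p = 6.94e-05), on the UMIs of very few pigmented cells described above, and the call was lost without the top 5% of cells by UMIs (adjusted p = 0.641) and without the sub-cluster with fibroblast markers (adjusted p = 0.385).

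The non-pigmented layer held Cldn3 mostly in part of its cells, with 7 of 14 UMIs in library 1 in 1 cell of 44526 UMIs. Its sub-clusters 3 and 4 together held 14 and 31 Cldn3 UMIs (22.3 and 48.4 CPM), against 0 and 2 (0 and 8.69 CPM) in sub-cluster 1, whose leading genes were Acta2, Aqp1 and Tagln. Ocln had 14 and 21 UMIs there (22.3 and 32.8 CPM), against 1 and 3 in sub-cluster 1 (5.12 and 13.03 CPM), and the intervals of the Ocln ratio included 1 in both libraries (0.662 to 184 and 0.751 to 13.2). Cldn19 was present in all 4 sub-clusters of each library, from 86.3 to 240.5 CPM. Cldn2 had 91.6 to 187 CPM in sub-clusters 1 and 4, 184 and 27.5 CPM in sub-cluster 3, and 1 UMI per library in sub-cluster 2. That sub-cluster was shallow and rich in photoreceptor RNA, and Cldn1 had 0 UMIs in it in both libraries. Whether depth or photoreceptor RNA plays a part in these differences was not tested.

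**Figure D5:**
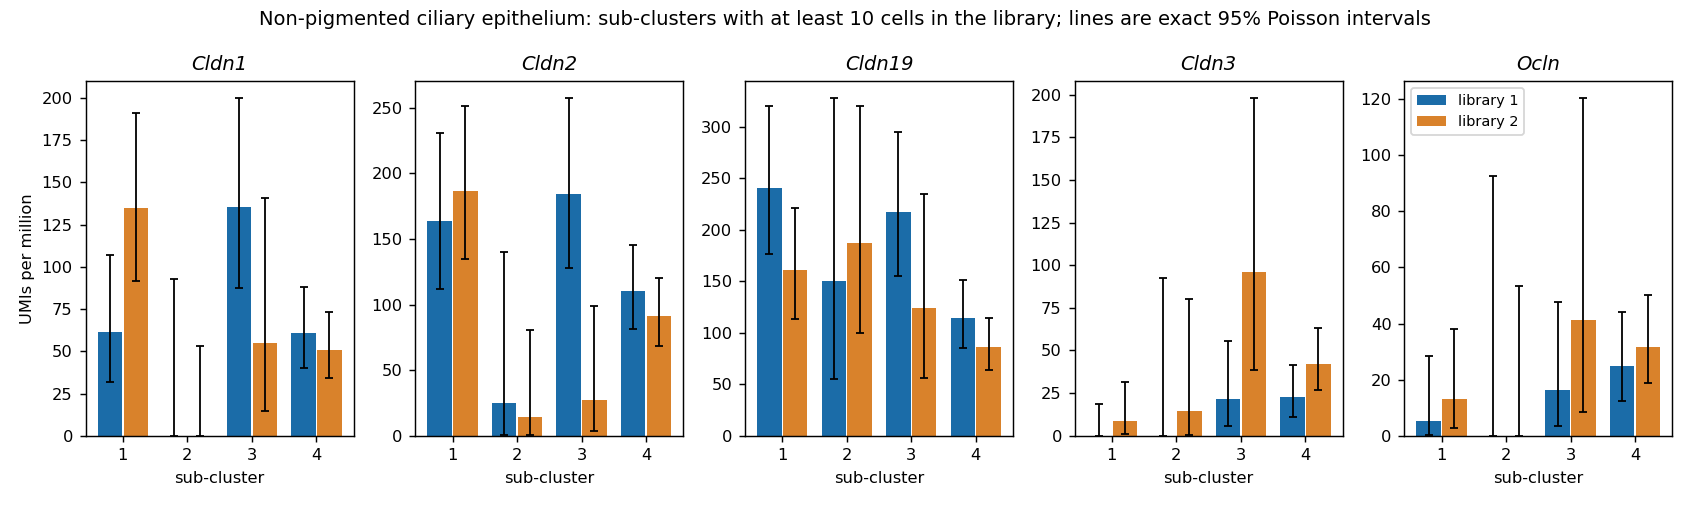
CPM of Cldn1, Cldn2, Cldn19, Cldn3 and Ocln in the 4 sub-clusters of non-pigmented epithelium, 1 bar per library with its exact 95% Poisson interval. Cldn19 is found in all 4 sub-clusters (86.3 to 240.5 CPM), while most Cldn3 and Ocln UMIs lie in sub-clusters 3 and 4, which also hold more UMIs in all.

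In part of the single cells of the non-pigmented layer, pore-forming and sealing claudins were detected together. Cldn2 and Cldn19 were both detected in 33 of 141 and 28 of 150 cells. Of the cells with a Cldn1 UMI, 31 of 35 and 35 of 40 also held Cldn2 or Cldn19. Among all cells of the layer, 86 of 141 and 77 of 150 held Cldn2 or Cldn19. Cells with both Cldn2 and Cldn19 had median depths of 6036 and 11028 UMIs, against 1628 and 1487 in cells with neither. The part of depth in this co-detection was not tested. In endothelium 100 of 103 and 43 of 48 F11r-positive cells held Cldn5, shares close to those of all endothelial cells (142 of 146 and 83 of 97). These are counts of cells and carry no test.

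Retinal pigment epithelium was then set against the mean of non-pigmented and pigmented epithelium. It had 1 member called higher (7.92% of all genes) and 2 lower (8.68%, or 16.6% either way). Cldn1 was higher by 2.59 ± 0.25 (edgeR adjusted p = 5.07e-09) and F11r lower (-3.43 ± 0.56, edgeR adjusted p = 2.55e-05). Cldn19 was called lower (edgeR adjusted p = 5.55e-06), at 0 UMIs against 273 in those classes over both libraries. Ocln differed by 1.33 ± 0.50 (edgeR adjusted p = 0.0684) and Cldn2 by -0.84 ± 0.43 (edgeR adjusted p = 0.191). Tjp1 differed by -0.69 ± 0.40 (edgeR adjusted p = 0.267) and Cldn5 by -1.05 ± 1.13 (edgeR adjusted p = 0.612). Cldn11, at 2 UMIs against 3, was not called (edgeR adjusted p = 0.978), and Cldn3 could not be fitted. The sub-clusters of retinal pigment epithelium with at least 10 cells in a library had Cldn1 at 134 to 610 CPM, all above the 1.70 and 5.93 CPM of endothelium.

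The fibroblast class was compared with the mean of the epithelia. Of its 3 clusters, 2 had trabecular meshwork markers (349 and 142 cells, and 282 and 230 cells). The other, named by fibroblast markers, had 287 and 59 cells. Values for fibroblasts here are those of the joined class. Of 7 members fitted, 2 were higher in fibroblasts (15.2% of all genes) and 3 lower (12.7%, or 27.9% either way). Cldn11 was higher by 4.18 ± 0.65 (edgeR adjusted p = 8.70e-06) and F11r by 1.40 ± 0.33 (edgeR adjusted p = 9.97e-04). F11r in fibroblasts, 34.7 and 45.9 CPM, was above both pigmented classes and below the non-pigmented layer, and 1 of the 3 fibroblast clusters held only 8 and 0 of its UMIs. Cldn1 (-4.42 ± 0.34, edgeR adjusted p = 1.26e-11) and Cldn2 (-1.28 ± 0.37, edgeR adjusted p = 0.00579) were lower, as was Ocln (edgeR adjusted p = 3.29e-05), at 1 UMI per library in fibroblasts against 36 and 37 in the epithelia. The Ocln call was lost with split UMIs. The Cldn2 call was lost with split UMIs (adjusted p = 0.215) and without the top 5% of cells by UMIs (adjusted p = 0.0718). Cldn5 (-0.86 ± 0.78, edgeR adjusted p = 0.423) and Tjp1 (0.43 ± 0.31, edgeR adjusted p = 0.292) were not called. Cldn3 and Cldn19 could not be fitted here, at 4 and 3 UMIs and at 4 and 2 UMIs in fibroblasts.

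The other genes of the pathway came from a list of 61 genes found in the files: further claudins, tricellular proteins, adhesion molecules related to F11r, plaque scaffolds, polarity proteins and regulators of RhoA and Rab13. In epithelia against endothelium 12 of the 43 fitted were higher (27.9%, against 14% of all genes) and 7 lower (16.3%, against 13.8%), and their median log2 fold change was 0.55 against 0.05 over all genes tested. Among 12 proteins of the polarity complexes, 5 were higher in epithelia and 1 lower. Inadl (Patj) had 64 and 66 UMIs in the epithelia against 0 and 1 in endothelium, Crb3 88 and 64 against 0 and 1, and Crb2 66 and 73 against 1 and 1. Ildr2, a tricellular junction protein, was higher by 3.97 ± 0.59. Esam, an endothelial relative of F11r, was the counterpart of Cldn5, with 867 UMIs (735 CPM) and 291 UMIs (575 CPM) in endothelium against at most 4 UMIs per library in any of the epithelia, a difference of -8.13 ± 0.33. Jam2 (-2.38 ± 0.30) and afadin (listed as Mllt4, -1.38 ± 0.25) were lower in epithelia too. All of these passed the edgeR test, with adjusted p from 6.71e-18 to 5.19e-04.

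Within single epithelia the plaque protein Cgn (cingulin) set the non-pigmented layer apart, with 151 UMIs (175 CPM) and 197 UMIs (209.5 CPM). It was higher there than in endothelium by 5.99 ± 0.52 (edgeR adjusted p = 1.63e-09) and than in pigmented epithelium by 4.23 ± 0.40 (edgeR adjusted p = 3.57e-08). The adenovirus receptor homologue Cxadr was higher than in endothelium by 2.92 ± 0.39 in the non-pigmented layer and by 3.16 ± 0.38 in retinal pigment epithelium (edgeR adjusted p = 1.35e-06 and 1.15e-07). Against endothelium, 13 list genes of 46 were higher in the non-pigmented layer (28.3%, against 11.6% of all genes) and 7 lower (15.2% against 11.7%). In pigmented epithelium 15 of 47 were higher (31.9% against 12.5%) and 9 lower (19.1% against 13.1%), and in retinal pigment epithelium 14 of 47 were higher (29.8% against 15.4%) and 10 lower (21.3% against 16.6%). Of 45 compared between non-pigmented and pigmented epithelium, 5 were higher (11.1% against 5.11%) and 4 lower (8.89% against 2.96%). Of 43 in retinal pigment epithelium against the mean of both, 4 were higher (9.3%, near the 7.92% of all genes) and 8 lower (18.6% against 8.68%). Arhgef18, a RhoA activator at tight junctions, was higher there by 1.36 ± 0.21, while Cgn (-1.84 ± 0.41), Prkci (-1.38 ± 0.34), Cgnl1 (-1.34 ± 0.34) and Pard3b (-1.33 ± 0.35) were lower, with edgeR adjusted p from 1.10e-05 to 0.00599. In fibroblasts against epithelia 4 of 43 were higher (9.3% against 15.2% of all genes) and 15 lower (34.9% against 12.7%), with a median of -0.24 against -0.02 over all genes. Cldn10, another claudin with pore-forming variants, was the highest of these, at 1660 UMIs (285 CPM) and 195 UMIs (70.4 CPM) in fibroblasts and a difference of 5.60 ± 0.68 (edgeR adjusted p = 7.93e-08), and 341 of the 1660 UMIs lay in 1 cell. Of these Cldn10 UMIs, 1306 and 167 lay in 1 fibroblast cluster with trabecular meshwork markers (495 and 164 CPM). The other cluster with such markers held 12 and 4. Lsr, a tricellular protein of the angulin family, was lower in fibroblasts, at 1 and 2 UMIs against 60 and 62 in the epithelia, and Crb3 at 2 and 1 against 88 and 64. Pard6b (-4.79 ± 0.56) and Cgn (-4.16 ± 0.46) were lower too, the 4 with edgeR adjusted p from 2.34e-08 to 1.11e-06.

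For members with at least 50 UMIs in a class of both libraries, the genes most alike across the 17 classes were found by Pearson's r of log2(CPM + 1), averaged over libraries, among 5830 genes that took no part in clustering. Classes share libraries and depth, so r is a description with no p. Cldn5 was most like Tcf15 (r = 0.920), Cyyr1 (0.899) and Eltd1 (0.893), and Cldn1 most like Gip (0.907), Tmem98 (0.882) and Fads3 (0.879). Cldn2 was most like Fras1 (0.847), Shisa2 (0.844) and Fbn1 (0.837), and Cldn19 most like Vcan (0.864), Arhgef19 (0.832) and Pdlim4 (0.804). F11r had Mgmt (0.839), Dock6 (0.831) and Ccdc102a (0.829), and Tjp1 had Gnpda2 (0.969), Dync1li2 (0.958) and Phtf1 (0.957). Tjp1 was spread over most classes but had 0 UMIs in B cells and neutrophils. Those classes held few UMIs in all (62166 and 88737, and 77241 and 48746). The part of these zeros in its values of r near 1 was not tested.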

How the data were processed

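Droplet single-cell RNA counts of 2 pooled libraries of mouse ciliary epithelium were used. The authors deposited matrices of unnormalized UMI counts, genes by cell barcodes, made with Cell Ranger 3.1.0 per the file headers; CASAVA 1.8, Cell Ranger, Seurat and the builds mm10 and GRCm38 are named in the submitters' processing notes, without their roles. The annotation used for counting is not given in the sources used here.

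Cells were kept from 500 genes upward and up to 30% mitochondrial UMIs. Doublets were kept and no caller was run. Genes were split at random into 16826 for clustering, which held all 216 markers, and 16630 held out, which held all junction genes. Both libraries were clustered together (scanpy 1.11.5, Python 3.11.15, igraph 0.11.9; 2000 variable genes, 30 principal components, Leiden resolution 1, and 0.5 for sub-clusters) without integration, giving 27 clusters. The rule that turned markers into class names, and the joining of fibroblast and trabecular meshwork clusters into 1 class, were set after the clusters were seen. A class name stands for a marker profile.

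UMIs were summed per class and library in 17 classes, those that reached 20 cells in both libraries (34 sums), and fitted with edgeR 4.0.16 in R 4.3.3 (TMM scaling, genes filtered by filterByExpr, the quasi-likelihood test on 16 residual df, Benjamini-Hochberg over 6928 held-out genes). The spread is shared by all classes. Library was a term in the fit, since all classes of a library come from 1 pool. Contrasts in which a class of a mean, or both sides, had 0 UMIs were not estimated and are left out of all counts, background shares included. On simulated data the fit was tested for its recovery of known changes. CPM intervals are exact Poisson 95% intervals and cover counting error only. Promoter windows came from RefSeq (GRCm38.p6) and gene positions from a GENCODE annotation of GRCm38.

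The members, lists and comparisons were chosen with earlier results of these data known. All members with an estimate are given in each comparison. From the list, up to 4 called genes per direction with the largest change are named, if both libraries move alike and the higher side has at least 50 UMIs in each. Alternatives were DESeq2 1.42.0, no TMM, no count filter, no library term, only 5 classes in the fit, a mitochondrial limit of 15%, resolution 2, another gene split, UMIs split between clustering and testing, leaving out the top 5% of cells by UMIs, the Myh11-rich pigmented sub-clusters or 1 library. Leaving out the Slco1c1-rich endothelial or the fibroblast-marked pigmented sub-cluster was added after the data were seen.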

Additional observations from a re-analysis of the deposited data

How the results depend on the processing

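Of 455 counts recomputed over 13 alternatives, 438 stayed within 1.5 times the value reported. With UMIs split between clustering and testing, no gene was held out, and 12366 genes were fitted against 6928 in the main fit. More genes were called from this larger set, which does not show a larger share. They numbered 2894 (epithelia against endothelium), 2384 (non-pigmented), 2688 (pigmented) and 3420 (retinal pigment epithelium). They numbered 1606 in retinal pigment against the mean of non-pigmented and pigmented epithelium, and 3063 in fibroblasts. In that setting, and without the top 5% of cells by UMIs, 1 member was higher in the pigmented and 1 in the retinal pigment epithelium against endothelium, and with split UMIs 1 member was lower in fibroblasts. Between non-pigmented and pigmented epithelium 0 members were lower without the top 5% of cells or without the sub-cluster with fibroblast markers, which also left 2 list genes lower. With no replicate block, that is without pairing classes by library, 2 list genes were higher there, and F11r lost its call against endothelium in the non-pigmented layer (log2 fold change -1.20, edgeR adjusted p = 0.0539). In retinal pigment against the mean of non-pigmented and pigmented epithelium 2 members were higher with only 5 classes in the fit, and 5 list genes were lower at a mitochondrial limit of 15%. The Slco1c1-rich endothelial cells were left out with their Ocln level known, a choice that lowers endothelial Ocln. Without them, the fitted Ocln difference against endothelium took the other sign in the mean of epithelia (0.48), non-pigmented (2.04) and retinal pigment epithelium (1.38). It stayed negative in pigmented epithelium (-1.97). No test is read from these values. The cause of the other shifts was not tested, save that fewer or more genes or cells entered. From 5694 genes (only 5 classes in the fit) to 12366 genes (split UMIs) were fitted. As shares of all genes called are not given here, the counts of members and list genes above are not read as results about them. Without TMM the median log2 fold change over 6928 genes was -0.20 for epithelia and -0.39 for retinal pigment epithelium, each against endothelium. It was -0.29 for retinal pigment against the mean of non-pigmented and pigmented epithelium. With TMM these medians, over the genes with an estimate, were 0.05, -0.05 and -0.06. With 1 library left out there was no test, and member differences then came from the other library alone. Members at a few UMIs per class (Cldn3, Cldn11, Ocln) are limited by depth.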
